A study of Mus musculus with 16 samples.

Results

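Fc receptors were represented in these macrophages by 5 genes, namely the IgG receptors Fcgr1, Fcgr4, Fcgr3 and Fcgr2b and the adaptor Fcer1g. They were chosen by gene symbol alone from the 15871 entries of the count table, each symbol had 1 entry, and all 5 passed the low-count filter that left 13527 entries to test. RNA was sequenced from peritoneal macrophages of WT C57BL/6 mice aged 8 weeks, elicited with 6% starch injected into the peritoneum and then cultured in DMEM with serum. The 16 libraries form 4 groups of 4, each treated for 48 h. H_O cells received high glucose (33 mmol/L) together with oxidized low-density lipoprotein (ox-LDL, 50 mg/ml in the unit that the labels print), H_C cells received high glucose without ox-LDL, L_O cells received ox-LDL in low glucose, and L_C cells received low glucose with 27.5 mM mannitol, a sugar alcohol that balances the osmotic load of the glucose. Mannitol is named in the labels of L_C and not in those of L_O, so ox-LDL in low glucose cannot be told apart from a lack of mannitol if the labels are complete. Ox-LDL turns cultured macrophages into lipid-laden foam cells, the state that the study set out to induce. Whether the replicates of a group are different animals, cultures or technical repeats is not in the labels, and p-values measure no more than the spread between these libraries.

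Fc gamma receptors bind the constant part of IgG and let macrophages take up antibody-coated particles and immune complexes. In mice Fcgr1 encodes the high-affinity receptor, Fcgr4 a receptor of intermediate affinity and Fcgr3 a low-affinity receptor, and these activating receptors signal through the common gamma chain encoded by Fcer1g, whose ITAM recruits the kinase Syk. Fcgr2b encodes the inhibitory receptor, which carries an ITIM that recruits the phosphatase encoded by Inpp5d and sets a threshold for activation. Interferon gamma is known to raise Fcgr1 and Fcgr4, and interleukin 4 to raise Fcgr2b.

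Library totals lay between 32596640 and 41712885 counts. All 8 macrophage markers looked up were measured, with a summed level of 19400 to 20900 CPM (counts scaled to a common library total) in H_O, 18500 to 18900 in H_C, 18200 to 18900 in L_O and 17400 to 20200 in L_C. Most of the sum was Lyz2, at 14100 CPM in L_C and 15900 in H_O on average, and single markers differed in both directions. Csf1r averaged 636 CPM in H_O, 877 in H_C, 580 in L_O and 815 in L_C. Itgam averaged 833, 505, 818 and 647 CPM in the same order. L_C replicate 4 stood apart from the other 15 libraries, with 3.71% of its counts from mitochondrial genes against 1.48 to 2.3% and 1.47% from ribosomal protein genes against 1.73 to 2.04%. Tests of the 5 genes against L_C are therefore given with and without this library, and those of other genes where it ended a call or moved the value by over 1.5 times. No 2 libraries of a group agreed within sampling noise.

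Fcgr2b, Fcgr4, Fcgr3 and Fcer1g lie within 275749 bases of chromosome 1, and Fcgr1 lies on chromosome 3 (GENCODE M21, mm10). Fcgr2b spans chr1:170958617-170976547 on the minus strand, Fcgr4 chr1:171018920-171029761 on the plus strand, Fcgr3 chr1:171051174-171064935 on the minus strand and Fcer1g chr1:171229572-171234365 on the minus strand. Fcgr1 spans chr3:96282909-96293969 on the minus strand. Fcgr3 and Fcgr2b are near copies in part, and 9.58% of the 50-base stretches of Fcgr3 transcripts occur in Fcgr2b as well, while Fcgr1, Fcgr4 and Fcer1g share no such stretch with another gene. How the counting treated reads from shared sequence is not given in the sources used here, so a small part of the Fcgr3 and Fcgr2b counts is uncertain. An antisense gene overlaps Fcgr2b and, with the strand setting not given, its reads cannot be told apart from those of Fcgr2b.

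Divided by transcript length, Fcer1g had the highest mean level over the 16 libraries, at 688 to 697 CPM per kilobase for its longest and shortest coding transcripts. Fcgr3 followed with 386 to 393 CPM per kilobase, and Fcgr1 was lowest with 20.5. Fcgr4 had 109 CPM per kilobase, and its rank against Fcgr2b was not fixed, because Fcgr2b had 339 with its shortest and 104 with its longest coding transcript. The plot of levels by library shows that the 5 genes did not share a pattern over the 4 groups.

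**Figure D1:**
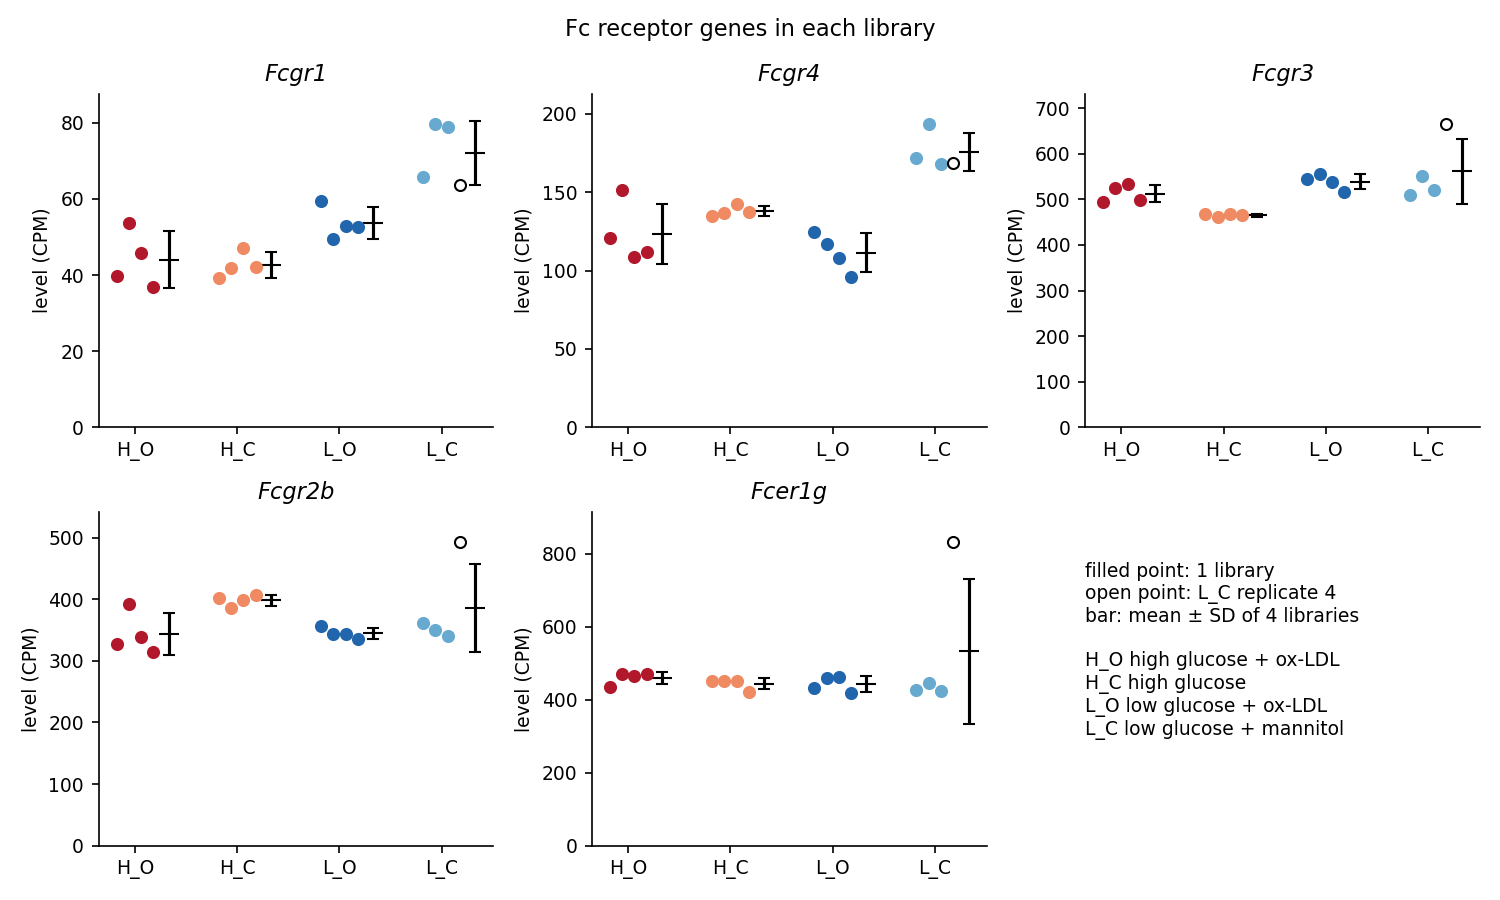
Level of each Fc receptor gene in CPM (y axis, from 0) in the 4 libraries of H_O, H_C, L_O and L_C (x axis), 1 point per library with the mean and SD of each group beside them and L_C replicate 4 as an open point. Fcgr1 and Fcgr4 are highest in the 4 L_C libraries, and L_C replicate 4 stands far above the other libraries for Fcer1g, at 831 CPM.

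The promoters of the 2 genes with the largest changes, Fcgr1 and Fcgr4, are shown because each holds a motif of the interferon pathway that the other does not. Both are printed 5′ to 3′ on the gene's own strand, from 250 bases before to 50 bases after the start of transcription, from RefSeq in GRCm38.p6. Capitals mark motif matches.
Fcgr1: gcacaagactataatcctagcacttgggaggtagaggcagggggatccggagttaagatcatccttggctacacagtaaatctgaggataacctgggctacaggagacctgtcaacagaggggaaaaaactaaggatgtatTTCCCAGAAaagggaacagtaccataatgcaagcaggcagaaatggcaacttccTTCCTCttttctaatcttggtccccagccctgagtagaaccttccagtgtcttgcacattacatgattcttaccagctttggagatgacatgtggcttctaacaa
Fcgr4: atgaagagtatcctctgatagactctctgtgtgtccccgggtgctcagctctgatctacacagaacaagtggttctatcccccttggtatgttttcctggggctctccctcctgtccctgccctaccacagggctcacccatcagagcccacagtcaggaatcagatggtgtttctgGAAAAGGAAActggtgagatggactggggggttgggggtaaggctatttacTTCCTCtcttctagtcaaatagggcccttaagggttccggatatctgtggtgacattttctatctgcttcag
The Fcgr1 window is chr3:96293920-96294219 on the minus strand and the Fcgr4 window is chr1:171018676-171018975 on the plus strand. In Fcgr1 the capitals at -109 to -101 match GAS, the gamma interferon activation site (TTCNNNGAA), and those at -55 to -50 match the core of the PU.1 element on the other strand (GAGGAA). In Fcgr4 the capitals at -73 to -64 match the core of ISRE, the element bound by interferon regulatory factors (GAAA and GAAA, 2 bases apart), and those at -22 to -17 match the PU.1 core on the other strand. Both strands were searched in 300-base windows of all 5 genes, and no matches overlapped. The Fcgr3 window held a PU.1 core, and the Fcgr2b and Fcer1g windows held no match to the 3 motifs. Among 32851 promoter windows of the same length, 8.3% held GAS, 3.44% the ISRE core and 28.3% the PU.1 core, and a match describes letters, not binding.

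**Figure D2:**
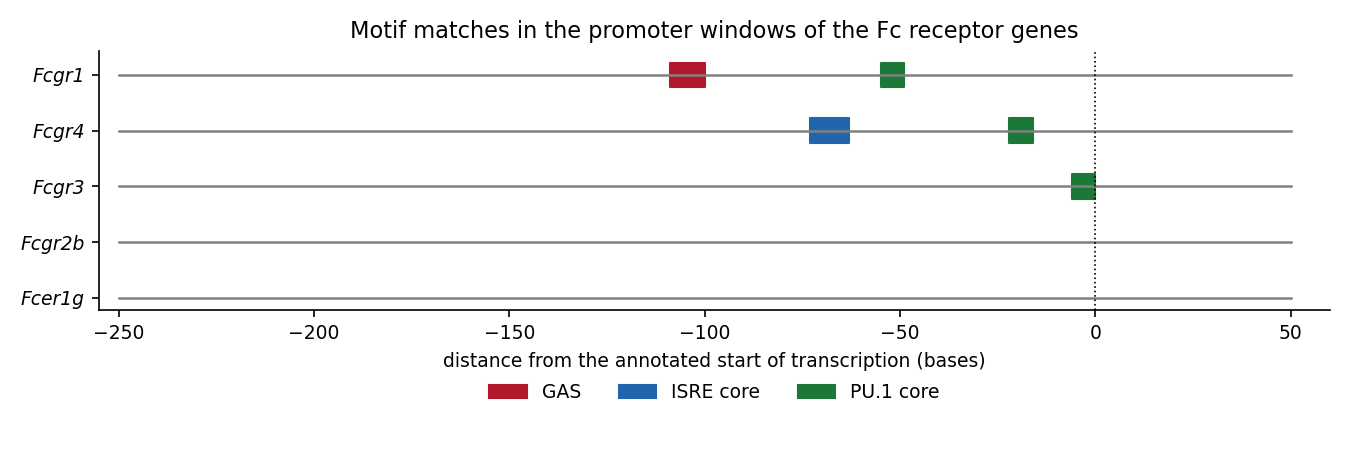
Position of motif matches relative to the start of transcription (x axis, bases) in the promoter window of each Fc receptor gene (rows). GAS is marked in Fcgr1, the ISRE core in Fcgr4 and the PU.1 core in Fcgr1, Fcgr3 and Fcgr4.

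Fcgr1, the high-affinity IgG receptor, was highest in L_C. Its 4 libraries had 39.8, 53.8, 45.8 and 36.8 CPM in H_O, 39.1, 41.8, 47.2 and 42.2 CPM in H_C, 59.5, 49.4, 52.9 and 52.7 CPM in L_O, and 65.8, 79.8, 78.9 and 63.7 CPM in L_C. Every L_C library lay above every library of the other 3 groups, while neighbours in the rest of the order, L_O, H_O and H_C, overlapped. High glucose without ox-LDL lowered Fcgr1 to 0.592 times its L_C level, a log2 fold change of -0.76 ± 0.11 (SE, adjusted p = 0.000128). Ox-LDL in low glucose lowered it to 0.745 times, a log2 fold change of -0.43 ± 0.10 (adjusted p = 0.00528). In bulk RNA, fewer cells of a type and less RNA per cell cannot be told apart.

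In high glucose no change of Fcgr1 with ox-LDL was detected, with a log2 fold change of 0.05 ± 0.11 (adjusted p = 0.812) and a 95% interval of -0.174 to 0.271, not adjusted for the number of genes. The estimate turned to -0.06 without H_O replicate 2, the highest H_O library. Between H_O and L_O the log2 fold change was -0.28 ± 0.11 (adjusted p = 0.129), and without H_O replicate 2 it was -0.39 and passed the threshold (adjusted p = 0.0307). Leaving out L_C replicate 4, where Fcgr1 was lowest among the L_C libraries, gave -0.81 for high glucose and -0.48 for ox-LDL in low glucose.

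Fcgr4 fell most with ox-LDL in low glucose. Its libraries had 121, 151, 109 and 112 CPM in H_O, 135, 137, 143 and 138 CPM in H_C, 125, 117, 108 and 95.8 CPM in L_O, and 172, 194, 168 and 168 CPM in L_C. L_O was the lowest group and L_C the highest, with H_C and H_O between them, and L_C did not overlap with any other group. The L_O level was 0.634 times that of L_C, a log2 fold change of -0.66 ± 0.091 (adjusted p = 2.43e-05). The fall in H_C against L_C was smaller, to 0.785 times, a log2 fold change of -0.35 ± 0.091 (adjusted p = 0.0161). That second call rests in part on L_C replicate 2, the highest library, since without it the log2 fold change was -0.30 with an adjusted p of 0.0513. Without L_C replicate 4 the values were -0.68 and -0.37.

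In high glucose the response of Fcgr4 to ox-LDL was -0.16 ± 0.091 on the log2 scale (adjusted p = 0.242, 95% interval -0.353 to 0.029). H_O replicate 2 was again the highest H_O library, and without it the log2 fold change was -0.27 (adjusted p = 0.0153). Between H_O and L_O the log2 fold change was 0.15 ± 0.091 (adjusted p = 0.406), with overlapping libraries.

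Fcgr3, the low-affinity activating receptor, was lower in high glucose without ox-LDL. Its libraries had 494, 524, 533 and 499.5 CPM in H_O, 468, 461, 468 and 466 CPM in H_C, 545, 557, 538 and 516 CPM in L_O, and 510.0, 550.3, 521 and 666 CPM in L_C. The H_C libraries were the lowest of all 16 and close to each other. The log2 fold change of H_C against L_C was -0.27 ± 0.063 (adjusted p = 0.00792). Without L_C replicate 4, the high L_C library, the fall was smaller at -0.18 and its adjusted p was 0.00126. Fitted on the 8 libraries of H_C and L_C alone it was -0.26 with an adjusted p of 0.0659.

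Set against H_C, Fcgr3 was higher in each H_O library, by 0.14 ± 0.063 on the log2 scale, and this did not pass the threshold over all 16 libraries (adjusted p = 0.137). It passed without L_C replicate 4, a library of neither group that adds to the shared estimate of spread, at the same 0.14 (adjusted p = 0.00224). With ox-LDL in low glucose the log2 fold change was -0.06 ± 0.063 (adjusted p = 0.539), and 0.03 without L_C replicate 4. Between H_O and L_O it was -0.07 ± 0.063 (adjusted p = 0.598, 95% interval -0.205 to 0.061).

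Fcgr2b, the inhibitory receptor, passed the threshold in none of the 4 comparisons over all 16 libraries. Its libraries had 328, 393, 339 and 314 CPM in H_O, 402, 385, 398 and 406 CPM in H_C, 357, 343, 343 and 335 CPM in L_O, and 361, 349.5, 340.3 and 492 CPM in L_C. H_C was the highest group, with little spread, and all neighbours in the order H_C, L_C, L_O and H_O overlapped. H_O differed from H_C by -0.21 ± 0.091 on the log2 scale (adjusted p = 0.113), and this passed without L_C replicate 4 (-0.21, adjusted p = 0.0024) and without H_O replicate 2 (-0.28, adjusted p = 0.0394).

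For Fcgr2b the comparison of H_C with L_C depends on a single library. The log2 fold change was 0.04 ± 0.091 (adjusted p = 0.81) with L_C replicate 4, where Fcgr2b stood at 492 CPM, and 0.18 (adjusted p = 0.0237) without it, when H_C averaged 398 ± 9.06 CPM (SD, n = 4) against 350.3 ± 10.5 CPM in the other 3 L_C libraries. The direction was opposite to that of Fcgr1, Fcgr4 and Fcgr3. L_O differed from L_C by -0.16 ± 0.091 (adjusted p = 0.212), and by -0.02 (adjusted p = 0.793) without that library. Between H_O and L_O the log2 fold change was 0.00 (adjusted p = 0.987), with a 95% interval of -0.197 to 0.187.

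Fcer1g, the gamma chain adaptor, did not pass the threshold in any of the 4 comparisons, with or without L_C replicate 4. Its libraries had 435, 470.1, 466 and 469.9 CPM in H_O, 451, 451, 451 and 422 CPM in H_C, 432, 460.0, 462 and 419 CPM in L_O, and 427, 446, 425 and 831 CPM in L_C. Apart from L_C replicate 4, the 15 libraries lay between 419 and 470.1 CPM, and all groups overlapped. Ox-LDL in high glucose gave a log2 fold change of 0.05 ± 0.15 (adjusted p = 0.861) and high against low glucose with ox-LDL gave 0.05 ± 0.15 (adjusted p = 0.9). The 2 comparisons against L_C were each -0.26 ± 0.15 with L_C replicate 4 (adjusted p = 0.223 for ox-LDL and 0.285 for high glucose), and each 0.04 without it (adjusted p = 0.562 and 0.607).

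**Figure D3:**
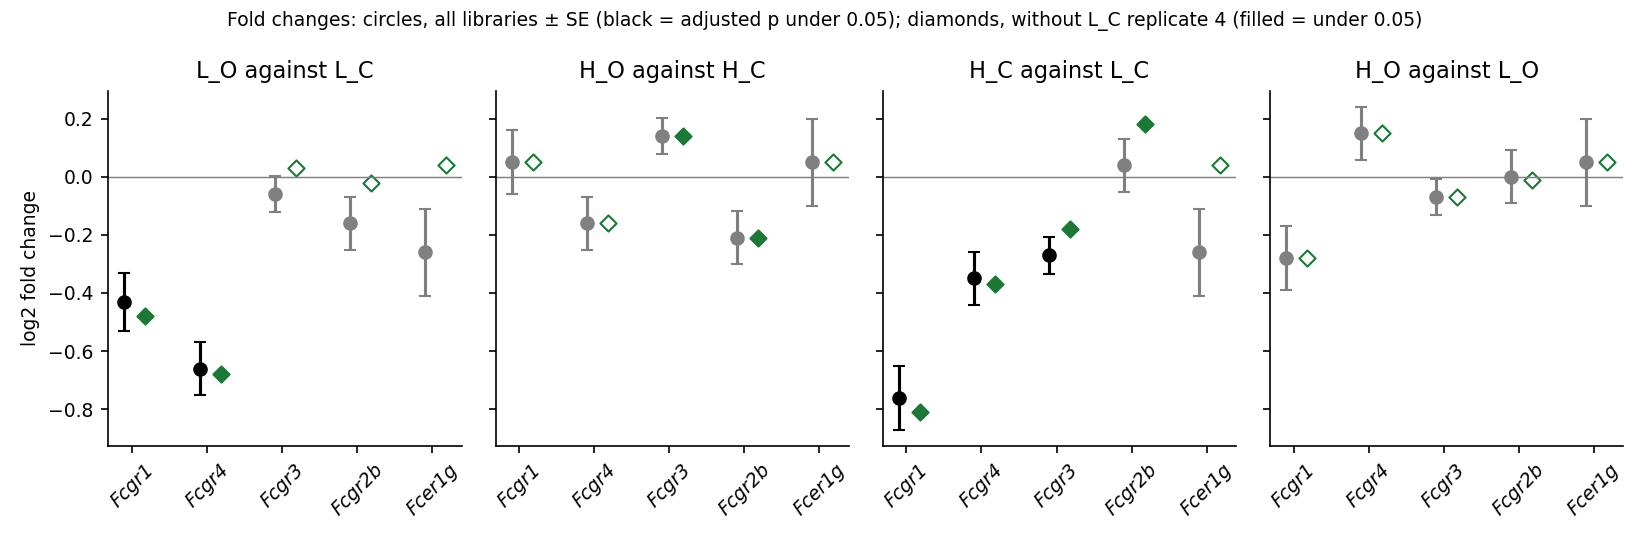
Log2 fold change (y axis) of the 5 Fc receptor genes (x axis) in the 4 comparisons (panels), as circles with the SE for all 16 libraries, black where adjusted p was under 0.05, and as diamonds without L_C replicate 4, filled where adjusted p was under 0.05. Fcgr1 and Fcgr4 lie below 0 in L_O against L_C, and Fcgr1, Fcgr4 and Fcgr3 lie below 0 in H_C against L_C, with and without that library.

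Over the 5 genes, 2 fell and 0 rose with ox-LDL in low glucose by the edgeR test, where 13.8% of the 13527 tested entries fell and 25.8% changed in either direction. High glucose without ox-LDL lowered 3 of 5 and raised 0, where 7.75% of entries fell, 5.03% rose and 12.8% changed. With L_C replicate 4 left out, 2 of 5 were lower with ox-LDL in low glucose, against 14.5% of entries lower and 13.8% higher. High glucose without ox-LDL then lowered 3 and raised 1, Fcgr2b, against 9.21% of entries lower and 6.71% higher.

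Ox-LDL in high glucose changed 0 of 5 by the edgeR test, against 21.9% of entries changed, 11.5% lower and 10.4% higher. At an unadjusted p under 0.05 there were 2 of 5, Fcgr3 and Fcgr2b, while DESeq2 and limma-voom each called 0. The edgeR fits without L_C replicate 4 (28.9% of entries changed) and on the 8 libraries of H_O and H_C (29.2%) each called Fcgr3 and Fcgr2b, and the fit without H_O replicate 2 (19.3%) called Fcgr2b and Fcgr4. High glucose with ox-LDL changed 0 of 5 by the edgeR test, against 6.11% of entries changed, 3.39% lower and 2.71% higher. There 1 of 5, Fcgr1, had an unadjusted p under 0.05, and DESeq2, limma-voom and the fit without L_C replicate 4 (12.8% of entries changed) each called 0.

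Libraries of the groups did not overlap for 2 of 5 genes in L_O against L_C (26.1% of tested entries), 1 of 5 in H_O against H_C (29.5%), 3 of 5 in H_C against L_C (17.4%) and 0 of 5 in H_O against L_O (17.7%). The median log2 fold change of the 5 genes was -0.26 in L_O against L_C, 0.05 in H_O against H_C, -0.27 in H_C against L_C and 0.00 in H_O against L_O, and the medians of all tested entries lay within 0.01 of 0. The -0.26 is the value of Fcer1g, which was 0.04 without L_C replicate 4. Without that library the median was -0.02 in L_O against L_C, the value of Fcgr2b. In H_C against L_C it was then -0.18, the value of Fcgr3. Without scaling beyond library totals the share of calls that were higher was 67.2% in place of 46.5% in L_O against L_C, 65.1% in place of 47.5% in H_O against H_C, and 52.4% in place of 39.3% in H_C against L_C. The falls of Fcgr1 and Fcgr4 passed under each scaling. The comparisons share groups and so are not independent of each other, and a part of mannitol in the differences from L_C cannot be told apart from that of the treatments.

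Whether the response to ox-LDL differed between high and low glucose was tested directly. The response of Fcgr4 was 0.50 ± 0.13 higher on the log2 scale in high glucose than in low glucose, with an unadjusted p of 0.0012 and an adjusted p of 0.191 by edgeR. DESeq2 gave 0.49 for the same difference with an adjusted p of 0.0286. For Fcgr1 the difference was 0.47 ± 0.15 by edgeR (unadjusted p = 0.00528, adjusted p = 0.315), and for Fcgr3 it was 0.20 ± 0.089 by edgeR (unadjusted p = 0.039, adjusted p = 0.55). Fcgr2b had a difference of -0.05 (adjusted p = 0.943) and Fcer1g one of 0.32 ± 0.21 (adjusted p = 0.738). By edgeR 0 of 5 differences passed, against 0.0148% of all tested entries, and DESeq2 called 1 of 5, Fcgr4, against 0.703%.

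The ratio of each activating receptor's counts to those of Fcgr2b does not depend on the scaling of libraries. It is a ratio of reads, not of molecules, and is given without a test because it is a score over chosen genes. The Fcgr3 to Fcgr2b ratio was lowest in H_C, at 1.17 ± 0.021, against 1.47 ± 0.1 in L_C (SD, n = 4 each), and the libraries did not overlap. In H_O it was 1.5 ± 0.12 and in L_O 1.56 ± 0.041, and H_O did not overlap with H_C. On the log2 scale the mean ratio was higher by 0.36 in H_O than in H_C and differed by -0.32 between H_C and L_C, or -0.36 without L_C replicate 4.

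Fcer1g followed the same order against Fcgr2b in high glucose, with a ratio of 1.35 ± 0.12 in H_O and 1.12 ± 0.056 in H_C, which did not overlap. In L_O it was 1.29 ± 0.067, and in L_C it was 1.35 ± 0.23, or 1.24 ± 0.049 without replicate 4, which turned the log2 difference of L_O from L_C to 0.06 in place of -0.05. The Fcgr1 to Fcgr2b ratio was 0.128 ± 0.0098 in H_O and 0.107 ± 0.0089 in H_C, against 0.156 ± 0.0095 in L_O and 0.193 ± 0.048 in L_C. Both high-glucose groups lay below their low-glucose counterparts without overlap, by a log2 difference of -0.29 with ox-LDL and -0.81 without it. Without L_C replicate 4 the L_C ratio was 0.214 ± 0.028 and that second difference was -0.99, and the difference of L_O from L_C was -0.45 in place of -0.27. Fcgr4 had a ratio of 0.358 ± 0.027 in H_O, 0.347 ± 0.012 in H_C, 0.323 ± 0.029 in L_O and 0.467 ± 0.089 in L_C, and L_C overlapped with the other groups through replicate 4 alone, without which its mean was 0.508 ± 0.041.

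**Figure D4:**
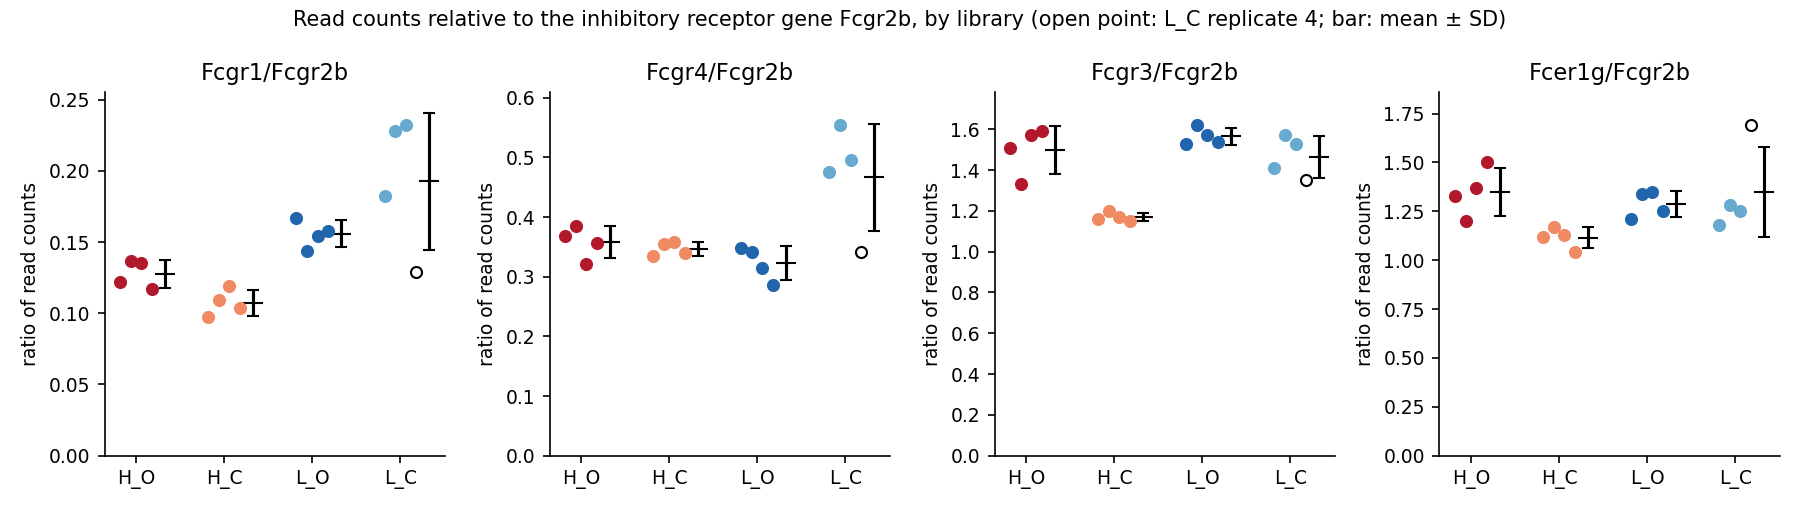
Ratio of the counts of Fcgr1, Fcgr4, Fcgr3 and Fcer1g to those of Fcgr2b (y axes, linear from 0) in each library of H_O, H_C, L_O and L_C (x axis), with the mean and SD beside the points and L_C replicate 4 as an open point. The Fcgr3 to Fcgr2b ratio is lowest in the 4 H_C libraries, at 1.17 ± 0.021.

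The genes whose log2 CPM followed each receptor most closely over the 16 libraries were ranked by Pearson's r among 8580 genes, as a description, since the libraries share groups, treatments and scaling. Closest to Fcgr4 were Ciita, the master activator of MHC class II genes (r = 0.96), the class II gene H2-Eb1 (r = 0.953) and Isoc1 (r = 0.951). Without L_C replicate 4 the top 3 were Ciita (0.956), H2-Ab1 (0.953) and H2-Eb1 (0.95), of which the second is another class II gene. Fcgr1 was closest to Coa5 (r = 0.952), the guanylate-binding protein gene Gbp8 (0.949) and the transglutaminase gene Tgm2 (0.93), and without that library to the interferon-induced gene Bst2 (0.967), Gbp8 (0.958) and Coa5 (0.95).

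Fcgr3 was closest to Pdia3, which encodes a protein disulphide isomerase of the endoplasmic reticulum (r = 0.97, and 0.938 without L_C replicate 4). The myosin light chain gene Myl12b (0.961) and Tagln2 (0.95) followed with all libraries, and Cndp2 (0.932) and Myl12b (0.928) without that library. For Fcgr2b and Fcer1g the lists with and without that library had no gene in common. Fcgr2b was closest to Tlk1 (r = 0.885), Med12 (0.884) and Siglec1 (0.882) with it and to Bcas3 (0.905), Arhgef18 (0.872) and Zfp523 (0.848) without it. Fcer1g was closest to Fxyd5 (0.961), Atn1 (0.956) and Pom121 (0.955) with it and to Plod3 (0.836), Cox20 (0.833) and Mrpl28 (0.798) without it.

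Other Fc receptor genes had lower levels than the 5. Per kilobase of exons, Fcgrt averaged 8.71 to 11.7 CPM and Trim21 6.37 to 7.71 CPM over the 4 groups, against 16.5 to 27.8 CPM for Fcgr1, the lowest of the 5. Of 14 looked up, 10 were in the table and 6 were tested, and Fcer1a, Ms4a2, Fcer2a and Fcamr were not analysed here. Fcgrt, which encodes the neonatal Fc receptor that recycles IgG, had 18.0, 18.2, 20.7 and 17.9 CPM in H_O, 17.5, 18.8, 18.9 and 18.0 CPM in H_C, 26.4, 21.8, 26.6 and 23.9 CPM in L_O, and 21.3, 23.5, 18.6 and 14.7 CPM in L_C. L_O was the highest group and overlapped with L_C. Fcgrt rose with ox-LDL in low glucose, with a log2 fold change of 0.34 ± 0.11 (adjusted p = 0.0307). It was lower in H_O than in L_O, by -0.40 ± 0.11 on the log2 scale (adjusted p = 0.0389). The rise was lost without L_C replicate 3 or 4 or L_O replicate 1 or 3, at 0.22 without L_C replicate 4 (adjusted p = 0.0675), and over all alternatives its adjusted p ran from 0.0061 to 0.113. The difference between H_O and L_O missed the threshold in 12 alternatives, among them leaving out L_O replicate 1, 3 or 4, H_O replicate 1, 2 or 4 or any H_C library, with a highest adjusted p of 0.115.

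Fcrl1, an Fc receptor-like gene known from B cells, was low and rose with ox-LDL in both glucose settings. It had 4.06, 3.44, 3.98 and 3.96 CPM in H_O against 2.41, 2.6, 2.41 and 1.07 CPM in H_C, a log2 fold change of 0.86 ± 0.22 (adjusted p = 0.00675), and 3.78, 4.69, 4.75 and 4.41 CPM in L_O against 1.99, 1.91, 1.66 and 2.29 CPM in L_C, a log2 fold change of 1.17 ± 0.22 (adjusted p = 0.000507). The groups did not overlap in either comparison. Among the measured B cell markers, Cd79a, Cd79b and Pax5 each stayed below 1 CPM in all 16 libraries and Ms4a1 reached at most 1.1 CPM, while Cd22 averaged 86 CPM in H_O against 118 CPM in H_C and 82 CPM in L_O against 127 CPM in L_C. The part of B cells in the Fcrl1 values was not tested.

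Trim21, which encodes a cytosolic antibody receptor, fell with ox-LDL in low glucose, to 25.5, 23.6, 22.8 and 22.8 CPM in L_O against 29.2, 30.2, 27.6 and 27.5 CPM in L_C. The log2 fold change was -0.27 ± 0.084 (adjusted p = 0.0212), and the call was lost without L_C replicate 2, without L_O replicate 3 or 4 and with no scaling beyond library totals, where the adjusted p reached 0.105. Fcrl6 was under 1 CPM and fell with ox-LDL in low glucose (-2.71 ± 0.77 on the log2 scale, adjusted p = 0.0136, lost without L_O replicate 2 at 0.051) and in high glucose (-2.82 ± 0.79, adjusted p = 0.014). Fcrlb fell with ox-LDL in high glucose (-1.11 ± 0.37, adjusted p = 0.039), a call lost without H_C replicate 1 or 3 or any H_O library, with adjusted p up to 0.117. Fcrls passed in no comparison, and Fcmr, Pigr, Fcrl5 and Fcrla were below the low-count filter.

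Genes listed with Fcer1g and with the sister adaptor encoded by Tyrobp moved in both directions. Beside receptors that signal through these adaptors, the list looked up held Pirb and Lilrb4a, which encode inhibitory receptors. Of 11 tested genes of this group, Tyrobp included, 2 rose and 4 fell with ox-LDL in low glucose, or 4 and 4 without L_C replicate 4, and 4 rose and 4 fell with ox-LDL in high glucose. Over all tested entries 25.8% changed in low glucose (13.8% fell), 28.3% without that library, and 21.9% changed in high glucose (11.5% fell). High glucose raised 2 and lowered 1 both without ox-LDL, where 12.8% of entries changed, and with it, where 6.11% did. The median log2 fold changes were -0.02 in L_O against L_C, -0.07 in H_O against H_C, -0.03 in H_C against L_C and 0.03 in H_O against L_O. Clec4n, which encodes the fungal lectin receptor Dectin-2, averaged 67.7 ± 6.51 CPM in H_O against 8.01 ± 0.415 CPM in H_C and 52.2 ± 0.967 CPM in L_O against 8.66 ± 0.983 CPM in L_C (SD, n = 4 each). These are log2 fold changes of 3.08 ± 0.084 (adjusted p = 6.88e-14) and 2.59 ± 0.083 (adjusted p = 3.51e-13). The C-type lectin gene Clec4d rose in all 4 comparisons, by 0.79 with ox-LDL in low glucose, 0.66 with ox-LDL in high glucose, 0.57 with high glucose and 0.45 with high glucose beside ox-LDL. Clec4e, which encodes the lectin Mincle, fell with ox-LDL by 0.81 on the log2 scale in low glucose (0.58 without L_C replicate 4). In high glucose Clec4e fell by 0.75 (adjusted p = 0.00164). Trem2, a lipid-sensing receptor gene, fell with ox-LDL by 0.37 in low and 0.45 in high glucose.

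Of 30 tested genes of activating signalling below Fc gamma receptors, 6 rose and 10 fell with ox-LDL in low glucose (median -0.10 on the log2 scale) and 4 rose and 9 fell in high glucose (median -0.07). High glucose raised 2 and lowered 5 without ox-LDL, or 5 and 4 without L_C replicate 4, and lowered 3 with ox-LDL, or raised 2 and lowered 4 without that library, with medians of -0.02 and 0.02. Over all tested entries 25.8% and 21.9% changed with ox-LDL in low and in high glucose (13.8% and 11.5% fell). With high glucose 12.8% and 6.11% changed without and with ox-LDL, or 15.9% and 12.8% without L_C replicate 4. The kinase gene Src fell with ox-LDL by 1.35 on the log2 scale in low glucose (adjusted p = 6.09e-06) and by 0.73 in high glucose (adjusted p = 0.00297). Src was low, at 9.18 CPM in L_C and 7.85 CPM in H_C on average. Lyn, a kinase gene at 225 CPM in L_C and 198 CPM in H_C, went the other way. It rose with ox-LDL by 0.17 in low glucose (adjusted p = 0.00277) and by 0.21 in high glucose (adjusted p = 0.000347). Malt1, a signalling protease gene downstream of Card9, fell with ox-LDL by 0.84 in low and 0.81 in high glucose. The adaptor gene Grb2 fell in all 4 comparisons, by 0.47 and 0.40 with ox-LDL in low and in high glucose and by 0.28 and 0.20 with high glucose without and with ox-LDL.

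Of 16 tested genes of inhibitory signalling, 3 rose and 6 fell with ox-LDL in low glucose, where 25.8% of all tested entries changed. In high glucose 5 rose and 4 fell, where 21.9% changed. High glucose raised 1 and lowered 5 without ox-LDL and raised 1 and lowered 1 with it, where 12.8% and 6.11% of entries changed. Without L_C replicate 4, 4 rose and 5 fell with ox-LDL in low glucose, where 28.3% of entries changed. In high glucose 6 rose and 6 fell without that library, where 28.9% changed. High glucose then raised 1 and lowered 5 without ox-LDL and raised 3 and lowered 5 with it, where 15.9% and 12.8% changed. Cbl, which fell with ox-LDL in both glucose settings, is counted in this list and in that of activating signalling. The medians were -0.08 in L_O against L_C, -0.05 in H_O against H_C, 0.00 in H_C against L_C and -0.06 in H_O against L_O. Inpp5d, which encodes the phosphatase SHIP-1 that Fcgr2b recruits, rose by 0.35 ± 0.049 in low glucose (adjusted p = 3.27e-05) and by 0.46 ± 0.049 in high glucose (adjusted p = 1.44e-06). Ptpn6, which encodes the phosphatase SHP-1, fell by 0.84 with ox-LDL in low glucose, by 0.44 with ox-LDL in high glucose and by 0.59 with high glucose without ox-LDL. Sirpa, an inhibitory receptor gene, fell by 0.36 and 0.37 with ox-LDL in low and in high glucose.

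Of 36 tested genes of the actin and membrane machinery of phagocytosis, 7 rose and 6 fell with ox-LDL in low glucose. There 25.8% of all tested entries changed. In high glucose 8 rose and 6 fell, where 21.9% changed. Without L_C replicate 4, 11 rose and 8 fell with ox-LDL in low glucose, where 28.3% of entries changed. In high glucose 12 rose and 7 fell without that library, where 28.9% changed. High glucose lowered 7 without ox-LDL and 2 with it, or raised 1 and lowered 12 in each case without that library, where 12.8% and 6.11% of entries changed, or 15.9% and 12.8% without it. The medians were -0.03 in L_O against L_C, 0.05 in H_O against H_C, -0.09 in H_C against L_C and -0.06 in H_O against L_O. The unconventional myosin genes Myo1e and Myo10, which act at the phagocytic cup, fell with ox-LDL by 1.25 and 1.07 in low glucose and by 1.27 and 1.13 in high glucose. Gsn, which encodes the actin-severing protein gelsolin, rose by 0.44 and 0.52, and Pla2g4a, a phospholipase gene, rose by 0.48 in low and 1.00 in high glucose. Of the 5 NADPH oxidase genes, which encode the enzyme that makes superoxide in the phagosome, 3 fell with ox-LDL in low glucose (median -0.24, 13.8% of all tested entries lower), and 1 rose and 3 fell in high glucose (median -0.25, 10.4% of entries higher and 11.5% lower). Cybb, its catalytic subunit, averaged 1590 ± 279 CPM in H_O against 2760 ± 93.9 CPM in H_C, and 1510 ± 112 CPM in L_O against 3120 ± 151 CPM in L_C, and fell by 0.80 and 1.04 on the log2 scale. High glucose raised 1 of the 5 with ox-LDL (median 0.07) and without it (median -0.11), namely Ncf1, an organizer subunit, by 0.37 and 0.32, where 2.71% and 5.03% of entries rose. Without L_C replicate 4, high glucose also lowered 1 with ox-LDL and 2 without it. Cyba, a membrane subunit, fell in both (-0.14, adjusted p = 0.0152, and -0.26, adjusted p = 0.000163). In that fit 12.8% of entries changed with ox-LDL, and 15.9% changed and 9.21% fell without it.

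Among 18 tested cytokine receptors and transcription factors known to act on Fc gamma receptor genes, 2 rose and 9 fell with ox-LDL in low glucose, 3 rose and 7 fell with ox-LDL in high glucose, 2 rose and 5 fell with high glucose without ox-LDL, and 2 rose and 1 fell with high glucose beside ox-LDL. Without L_C replicate 4, 2 rose and 10 fell, 4 rose and 8 fell, 2 rose and 5 fell, and 2 rose and 2 fell in that order. Over all tested entries 25.8%, 21.9%, 12.8% and 6.11% changed in these comparisons with all libraries, and 13.8%, 11.5%, 7.75% and 3.39% fell. Without L_C replicate 4, 28.3%, 28.9%, 15.9% and 12.8% of entries changed. The medians of the list were -0.14, -0.09, -0.09 and -0.03.

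Irf1, an interferon-induced transcription factor gene, fell by 1.47 with ox-LDL in low glucose, by 0.93 with ox-LDL in high glucose and by 0.87 with high glucose without ox-LDL. Irf8, a factor of the monocyte lineage, fell with ox-LDL by 0.63 in low and 0.42 in high glucose, and Ifngr2, a chain of the interferon gamma receptor, by 0.53 and 0.52. Il4ra, the interleukin 4 receptor chain, rose by 0.47 and 0.52. C5ar1, which encodes the receptor for complement C5a, averaged 162 ± 7.63 CPM in H_O against 74.3 ± 5.41 CPM in H_C, and 110.0 ± 4.63 CPM in L_O against 63.2 ± 6.44 CPM in L_C, log2 fold changes of 1.12 and 0.80. Whether any of these genes acts on the receptors in these cells was not tested.

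**Figure D5:**
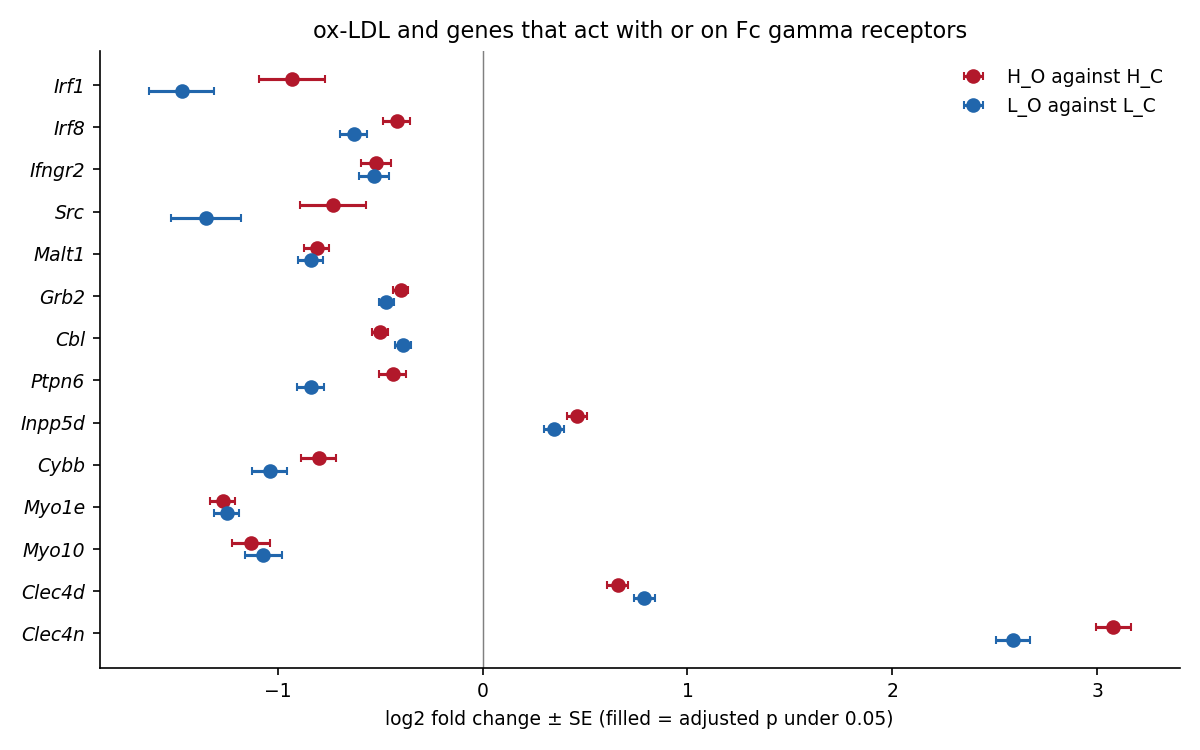
Log2 fold change with SE (x axis) of 14 of the named genes (rows) with ox-LDL in high glucose (H_O against H_C, red) and in low glucose (L_O against L_C, blue), filled where adjusted p was under 0.05. The 14 were picked by hand and do not show the balance of rises and falls. Among named genes not drawn, C5ar1, Il4ra, Gsn and Pla2g4a rose and Clec4e, Trem2 and Sirpa fell. Clec4n lies farthest right, at 3.08 in high glucose and Irf1 farthest left, at -1.47 in low glucose.

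Levels of marker genes of other cells moved with ox-LDL as well. Itgax, which macrophages and dendritic cells share, averaged 291 CPM in H_O against 596 CPM in H_C and 380 CPM in L_O against 767 CPM in L_C, while the dendritic cell markers Clec9a, Xcr1 and Ccr7 stayed under 2 CPM. The summed level of the 6 measured dendritic cell markers of 7 was 257 to 320 CPM in H_O, 592 to 613 in H_C, 374 to 401 in L_O and 717 to 800 in L_C. Siglecf, the leading measured eosinophil marker, averaged 5.24 CPM in H_O against 22 CPM in H_C and 4.2 CPM in L_O against 17.6 CPM in L_C. Of that list 3 of 6 markers were measured, and Ccr3 and Il5ra stayed at or below 0.237 and 0.212 CPM. The 6 measured B cell markers of 7 summed to 83.2 to 93.1 CPM in H_O, 118 to 123 in H_C, 80.0 to 85.5 in L_O and 113 to 161 in L_C, most of it Cd22. Of the 10 neutrophil markers 5 were measured, at 66.5 to 75.8 CPM in H_O, 109 to 116 in H_C, 72.9 to 84.8 in L_O and 128 to 186 in L_C, most of it Csf3r, while S100a9 stayed at or below 0.234 CPM. S100a8 did not go with the sum, at 4.33 CPM in H_O against 3.28 in H_C and 4.11 in L_O against 3.67 in L_C on average. Cxcr2 reached at most 2.55 CPM and Ltf 0.967 CPM.

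NK cell markers, 6 of 7 measured, summed to at most 4.31 CPM in any library, T cell markers, 5 of 6 measured, to at most 9.08 CPM, and mast cell and basophil markers, 4 of 10 measured, to at most 1.74 CPM. The 7 mesothelial and fibroblast markers summed to 22.3 to 70.8 CPM in H_O, 18.7 to 122 in H_C, 11.5 to 21.3 in L_O and 27.7 to 44.2 in L_C. The part of other cells in the receptor values was not tested.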

How the data were processed

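RNA from 16 samples, 4 per group as the labels give them, was sequenced from standard Illumina libraries after Trizol extraction, per the labels' protocols. The authors deposited 1 table of whole-number read counts per gene, not normalized. HISAT2, DESeq2 and mm10 are named without versions or roles, per the submitters' processing notes, and the counting tool, annotation and strand setting are not given in the sources used here. Each of the 15871 entries has a read in at least 4 samples, and library totals of 32596640 to 41712885 set the counting error.

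All entries were fitted at once in edgeR 4.0.16 (R 4.3.3), using its two-sided quasi-likelihood F test on the counts with TMM scaling, filterByExpr, a mean for each group and 12 residual degrees of freedom over all 16 samples. The Benjamini-Hochberg adjustment ran over the 13527 entries that passed the filter, at a threshold of 0.05, and 2344 entries were not tested. Every adjusted p is from this fit unless another tool is named. CPM uses TMM library sizes, and the correlations use log2 CPM with a prior count of 2. Standard errors were taken from the fold change and the F statistic, and 95% intervals from those and the moderated degrees of freedom. The pipeline was tested on simulated data.

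The Fc receptor genes, the gene lists and the tests were chosen with earlier results of these data known. Genes named are the 5 receptor genes, the other measured Fc receptor genes, the 3 most correlated genes of each, and, from each list, up to 4 genes with the smallest adjusted p per comparison, of which the text prints a subset. Alternatives were RLE, upper-quartile and no scaling, no low-count filter, at least 1 CPM in 4 samples, DESeq2 1.42.0, limma-voom (limma 3.58.1), a replicate block, the 8 libraries of a comparison alone, and leaving out each library. The lists, ratios and correlations without L_C replicate 4 were added after seeing the data. Positions and lengths come from GENCODE M21 and promoters from RefSeq. Protein sequences were not used here. Some items named by the rule are not reported here.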

Additional observations from a re-analysis of the deposited data

Results flagged for a closer look

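Of 60 sets of 4 libraries examined for a library far from the rest of its group, 8 had one, where chance gives about 1 in 20. Both Fcgr2b (492 CPM) and Fcer1g (831 CPM) were far above the rest of the group in L_C replicate 4, the library with the highest mitochondrial share, and the part of that share in these values was not tested. Fcgr4 was far above its group in L_C replicate 2, at 194 CPM. Fcer1g was far below its group in H_C replicate 4, at 422 CPM, and in H_O replicate 1, at 435 CPM, in both cases after very close agreement of the other 3 libraries. Fcgrt stood above its group in H_O replicate 3, at 20.7 CPM. Fcrl1 stood below its group in H_C replicate 4, at 1.07 CPM, and in H_O replicate 2, at 3.44 CPM.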

How the results depend on the processing

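The falls of Fcgr1 and Fcgr4 with ox-LDL in low glucose, and of Fcgr1 with high glucose without ox-LDL, kept direction and call in all 25 alternatives. In the fit with the replicate block the counts of Fc receptor genes called were 2 for ox-LDL in low glucose, 0 for ox-LDL in high glucose, 3 for high glucose without ox-LDL and 0 with it, as without the block. The sources used here do not say whether the numbers pair the samples. Deviations of same-numbered libraries correlated between -0.165 and 0.106 over 24 pairs, and 3 libraries correlated best with their own number. These values cannot settle whether the samples are paired, because a small shared effect could be hidden by the spread of single libraries. Leaving out a library in turn gave the following log2 ranges. Fcgr1 ran from -0.061 (without H_O replicate 2) to 0.126 for H_O against H_C, and from -0.393 (without the same library) to -0.206 for H_O against L_O. Fcgr2b ran from -0.283 to -0.172 for H_O against H_C, from -0.012 (without L_C replicate 3) to 0.183 (without L_C replicate 4) for H_C against L_C, from -0.076 to 0.035 for H_O against L_O, and from -0.188 to 0.007 for the difference of responses. Fcgr3 ran from -0.103 to 0.033 (without L_C replicate 4) for L_O against L_C and from 0.12 to 0.158 for H_O against H_C. Fcgr4 ran from -0.274 to -0.107 for H_O against H_C and from -0.369 to -0.298 (without L_C replicate 2) for H_C against L_C. Fcer1g ran from -0.358 to 0.036 for L_O against L_C and from -0.357 to 0.037 for H_C against L_C, both highest without L_C replicate 4. Called Fc receptor genes numbered 0 to 2 for H_O against H_C and 0 to 1 for H_O against L_O.

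Fitted on the 8 libraries compared, Fcgr2b (-0.214) and Fcgr3 (0.138) passed in H_O against H_C, making 2 called, and Fcgr3 (-0.264) missed in H_C against L_C. Without scaling Fcgr3 passed in H_O against H_C (0.204), making 1 called, and turned to 0.028 in L_O against L_C, while Fcgr2b turned to 0.01 in H_O against L_O, and to 0.006 with upper-quartile factors. DESeq2 called the difference of responses of Fcgr4 (0.493), making 1 called. The cause of these changes was not tested. Counts over all genes moved by over 1.5 times to 914 in place of 1729 for H_C against L_C and to 1619 in place of 826 for H_O against L_O (8 libraries), to 1763, 526 and 549 for H_O against L_O without L_C replicate 4, L_O replicate 1 and L_O replicate 4, and for the difference of responses to 95 with DESeq2, 0 with limma-voom and with the replicate block, and 0 to 53 over left-out libraries, in place of 2. Of 2748 alternatives for other named genes, 2584 kept direction and call, 164 lost the call and 0 reversed. Leaving out L_C replicate 4 gave -0.45 in place of -0.27 for the log2 Fcgr1 to Fcgr2b ratio and 0.06 in place of -0.05 for the Fcer1g to Fcgr2b ratio in L_O against L_C. Fcrl6 and other genes under 1 CPM are limited by depth.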
